A study of Mus musculus with 8 samples.

Results

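The genes described here encode the first signalling step of the T cell receptor. They are the CD3 chains Cd3e, Cd3d and Cd3g, the coreceptor Cd4, the kinases Lck and Zap70, and the adaptors Lat, Lcp2 and Themis. They were chosen by name, as a reference set of T cell genes, and all 9 are among the 23997 genes of the deposited table. Expression was measured by RNA sequencing of regulatory T (Treg) cells, sorted on CD4 and YFP from the spleen and draining lymph nodes of C57BL/6 mice. Bcl11b-deficient cells came from mice of genotype Bcl11b f/f Foxp3-YFP-Cre/+, with both copies of Bcl11b floxed. Bcl11b-sufficient cells came from Bcl11b f/+ Foxp3-YFP-Cre/+ mice, with 1 floxed and 1 wild-type copy, so that both groups carry the Cre, which is made where Foxp3 is expressed, and at least 1 floxed copy. No age or treatment is given for either group. Bcl11b encodes a DNA-binding regulator needed for T cell identity, and the comparison addresses what its deletion does to the Treg transcriptome.

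The T cell receptor itself has no enzymatic activity. It signals through the CD3 chains and the zeta chain, whose cytoplasmic tails carry tyrosine motifs called ITAMs. Lck, carried to the receptor by CD4 or CD8, phosphorylates the ITAMs, and Zap70 binds them and is activated in turn. Zap70 then phosphorylates Lat and Lcp2 (SLP-76), which assemble the complex that drives calcium and Ras signalling. Themis is a T lineage protein that binds the phosphatase Shp1 and sets signalling strength in developing thymocytes. Treg cells depend on this pathway both for their selection in the thymus and for their suppressive function.

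The deposited values are FPKM, fragments scaled for transcript length and library size, for 8 columns, 4 per group. Depth, read from the commonest step among low values, was approximately 2900000 to 12900000 fragments per column. The columns did not all behave as separate libraries. In all, 3 pairs of columns (1 with 3 and 2 with 4 among the deficient, 1 with 3 among the sufficient) differed internally by 1.09 to 1.26 times the sampling noise of their reads, against 1.60 to 2.86 times for the 9 other pairs of the same group. Each near-identical pair was averaged and counted as 1 library, which left 2 deficient and 3 sufficient libraries. Means ± SD are over these libraries throughout. The labels do not state whether the libraries are from different mice, and the p-values reflect library-to-library spread alone, part of which may be technical. Bcl11b was lower in every deficient library, at 21.7 ± 3.83 FPKM (SD, n = 2) against 42.7 ± 3.68 FPKM (SD, n = 3; log2 fold change by limma -0.95, SE 0.14, adjusted p = 0.0238). That call ended in 7 of 24 other settings, with adjusted p up to 0.133. Foxp3, which defines the sorted cells, measured 153 ± 0.517 and 187 ± 18.8 FPKM. Of the chains of the other T cell coreceptor, Cd8a was at 0.576 ± 0.0357 and 0.321 ± 0.213 FPKM and Cd8b1 at 10.3 ± 0.334 and 13.0 ± 1.54 FPKM.

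None of the 9 genes passed the test between deficient and sufficient libraries. With limma over the 10614 genes that averaged at least 1 FPKM, 279 passed an adjusted p of 0.05, which is 2.63% of them, and 0 of the 9 did. At an unadjusted p under 0.05, 3 of the 9 passed (Themis, Lat and Lck), against 17.8% of all genes tested. Of these, Themis was higher, against 9.36% of all genes, and Lat and Lck lower, against 8.45%. With the 8 columns taken as separate libraries, Lck and Lat were called lower and Themis higher, where 17.4% of all genes were called. The count over all genes dropped to 80 without sufficient replicate 2 and to 133 without replicate 4 of that group, and it was 16 or 8 when one or the other deficient library was left out, which leaves a lone library assumed to vary like the others. All 9 passed the filter on low values. Themis, at 163% of the sufficient level, and Lat, at 71.2%, lay farthest from equality. The other 7 lay between 81.6% (Lck) and 112% (Cd4). The median log2 fold change of the set was -0.13, against -0.01 over all genes tested, and the median of its absolute values was 0.18 against 0.16.

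**Figure D1:**
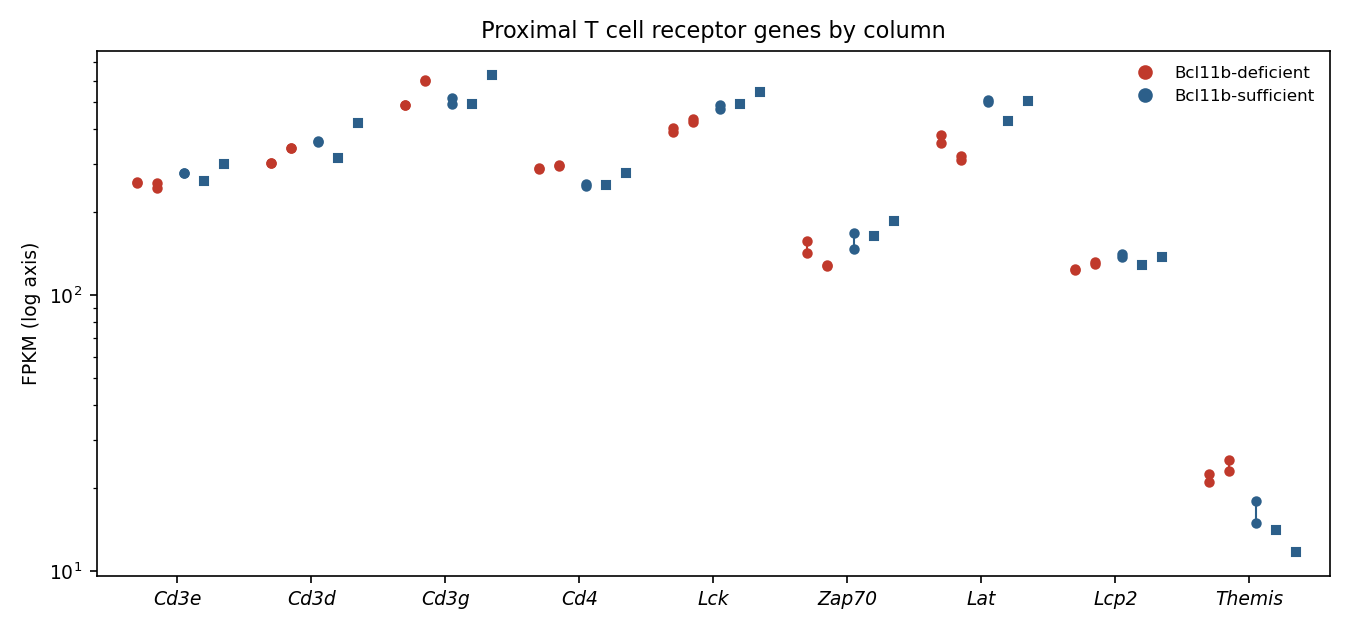
FPKM (log axis) of each gene in the 8 deposited columns, grouped by library from left to right as deficient replicates 1 and 3, deficient 2 and 4, sufficient 1 and 3, sufficient 2 and sufficient 4. Circles joined by a line are the columns averaged as 1 library and squares are libraries of a single column; deficient libraries do not overlap the sufficient ones for Themis and Cd4 (higher) and for Lat, Lck, Zap70 and Cd3e (lower).

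The promoters of the genes the results turn on are shown first, as the 250 bases before the annotated start, 5′ to 3′ on the gene's own strand. They were taken from RefSeq promoters of build GRCm38.p6, which held 8 of the 9 genes. The 4 short motifs below were searched on both strands. Capitals mark a match to GGAAG, the core bound by many ETS factors, or to CACCTG, an E-box, and CTTCC in capitals is GGAAG on the opposite strand; TGTGGT, of RUNX factors, and TGACCA, known for the Bcl11b relative BCL11A, had no match in these 5 windows. No match overlapped another.

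Cd3e (chr9:45009612-45009861, minus strand): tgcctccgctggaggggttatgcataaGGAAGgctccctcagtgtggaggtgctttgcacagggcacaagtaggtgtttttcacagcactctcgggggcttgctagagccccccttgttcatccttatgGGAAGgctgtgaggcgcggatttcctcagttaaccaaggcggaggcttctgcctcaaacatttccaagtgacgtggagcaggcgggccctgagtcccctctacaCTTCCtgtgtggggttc

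Cd3d (chr9:44981536-44981785, plus strand): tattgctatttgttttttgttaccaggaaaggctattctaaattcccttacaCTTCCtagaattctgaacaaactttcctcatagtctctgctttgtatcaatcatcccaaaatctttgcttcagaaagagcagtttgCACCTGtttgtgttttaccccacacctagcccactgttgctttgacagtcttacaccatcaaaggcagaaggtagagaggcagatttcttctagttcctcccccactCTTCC

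Cd3g (chr9:44980432-44980681, minus strand): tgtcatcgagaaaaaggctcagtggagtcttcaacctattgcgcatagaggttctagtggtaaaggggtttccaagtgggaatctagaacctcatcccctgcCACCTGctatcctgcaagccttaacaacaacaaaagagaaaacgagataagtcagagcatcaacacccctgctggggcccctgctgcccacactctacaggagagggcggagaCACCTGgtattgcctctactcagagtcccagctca

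Lat (chr7:126369569-126369818, minus strand): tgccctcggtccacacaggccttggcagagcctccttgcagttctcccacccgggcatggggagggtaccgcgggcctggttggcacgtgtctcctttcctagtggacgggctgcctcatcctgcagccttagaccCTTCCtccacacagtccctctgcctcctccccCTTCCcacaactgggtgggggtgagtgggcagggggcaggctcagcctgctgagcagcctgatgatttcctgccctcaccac

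Themis (chr10:28668110-28668359, plus strand): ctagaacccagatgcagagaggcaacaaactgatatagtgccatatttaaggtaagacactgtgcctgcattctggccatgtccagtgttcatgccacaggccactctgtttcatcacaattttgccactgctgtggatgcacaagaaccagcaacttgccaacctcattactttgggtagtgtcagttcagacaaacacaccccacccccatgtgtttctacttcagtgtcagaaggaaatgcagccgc

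The 3 CD3 genes were printed because they are neighbours whose products form 1 complex, and Lat and Themis because they differed most between groups. GGAAG had 3 matches at Cd3e and 2 each at Cd3d and Lat. CACCTG had 2 matches at Cd3g and 1 at Cd3d. The Themis window held none of the 4 motifs, nor did the other RefSeq promoter of that gene. That promoter (28668145 to 28668394) shares most of its bases with the printed window. TGTGGT was found in 1 promoter each of Lck and Zap70, and TGACCA in none of the 12 promoters of these genes. Among all 32851 RefSeq promoters cut to the same length, 64.1% held GGAAG, 17.2% CACCTG, 14.0% TGTGGT and 11.4% TGACCA. The matches describe letters only, and the data hold no measurement of binding.

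The CD3 chains form the signalling dimers of the receptor complex, with Cd3e paired to Cd3d or to Cd3g. Their genes lie together on chromosome 9 of GRCm38, over 40.1 kb from Cd3g (ENSMUSG00000002033.14, 44969572 to 44980431, minus strand) through Cd3d (ENSMUSG00000032094.8, 44981786 to 44987339, plus strand) to Cd3e (ENSMUSG00000032093.7, 44998740 to 45009627, minus strand). Cd3g and Cd3d are transcribed away from each other, with 1354 bases between them.

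Cd3e stood at 256, 245, 257 and 254 FPKM in deficient columns 1 to 4, against 277, 259, 277 and 298 FPKM in sufficient columns 1 to 4. The deficient libraries were all below the sufficient ones, but the gap was narrow, with sufficient replicate 2 closest to them. Deficient libraries averaged 253 ± 4.95 FPKM (SD, n = 2), sufficient ones 278 ± 19.4 FPKM (SD, n = 3), a log2 fold change of -0.13 (SE 0.11, limma adjusted p = 0.584). Its 95% interval on the log2 scale, -0.40 to 0.13, corresponds to 75.8% to 110% of the sufficient level.

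Cd3d stood at 301, 342, 302 and 342 FPKM in deficient columns 1 to 4, against 361, 315, 360 and 422 FPKM in sufficient columns 1 to 4. Its groups overlapped, since the library of deficient replicates 2 and 4 stood above sufficient replicate 2. The fitted log2 difference was -0.18 (limma SE 0.15, adjusted p = 0.592, 95% interval -0.54 to 0.18).

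Cd3g was the most abundant of the 9 genes per length in both groups. It stood at 491, 599, 490 and 602 FPKM in deficient columns 1 to 4, against 494, 492, 521 and 631 FPKM in sufficient columns 1 to 4. Each group held low and high libraries, and the difference between groups was far smaller than that spread, with means of 546 ± 78.0 FPKM (SD, n = 2) and 543 ± 75.9 FPKM (SD, n = 3). The fitted log2 difference was 0.01 (limma SE 0.16, adjusted p = 0.988), with a 95% interval from -0.38 to 0.39.

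Sufficient replicate 4 was the highest of the 5 libraries for Cd3e, Cd3d and Cd3g. The library of deficient replicates 2 and 4 was above that of deficient replicates 1 and 3 for Cd3d and Cd3g but not for Cd3e. The ratio of Cd3d to Cd3e within a library, which does not move with the library total, was 1.18 and 1.37 in deficient and 1.30, 1.22 and 1.42 in sufficient libraries. The ratio of Cd3g to Cd3e was 2.16 ± 0.350 and 1.95 ± 0.149. Exact two-sided permutation tests over the 5 libraries gave p = 0.7 and p = 0.5 for these ratios, where 10 assignments allow no p below 0.1. The zeta chain Cd247, which completes the receptor complex and is encoded elsewhere, measured 268 ± 14.0 against 268 ± 26.4 FPKM, a log2 fold change of 0.01 (SE 0.13, limma adjusted p = 0.988).

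Cd4 (ENSMUSG00000023274.14, chromosome 6, 124864692 to 124888221, minus strand) encodes the coreceptor used to sort the cells. It stood at 290.5, 296, 287 and 294 FPKM in deficient columns 1 to 4, against 252, 251, 249 and 278 FPKM in sufficient columns 1 to 4. All deficient libraries were above all sufficient ones, with sufficient replicate 4 nearest. Deficient libraries averaged 292 ± 4.33 FPKM (SD, n = 2), sufficient ones 260.1 ± 15.9 FPKM (SD, n = 3). The log2 fold change of 0.17 (SE 0.11) did not pass (limma adjusted p = 0.476), and its 95% interval corresponds to 93.9% to 134% of the sufficient level.

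Relative to Cd3e in the same library, Cd4 stood higher in deficient cells. The ratio of Cd4 to Cd3e was 1.13 and 1.18 in the deficient libraries and 0.904, 0.969 and 0.934 in the sufficient ones. In deficient libraries the Cd4 value was thus above that of Cd3e and in sufficient libraries below it. The log2 difference was 0.30 (exact two-sided permutation p = 0.1, the smallest that the design allows; 0.2 adjusted over the 6 ratios tested).

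Lck (ENSMUSG00000000409.14, chromosome 4, 129548344 to 129573641, minus strand), the Src family kinase that starts the cascade, stood at 403, 435, 391 and 423 FPKM in deficient columns 1 to 4, against 490.1, 492, 472 and 545 FPKM in sufficient columns 1 to 4. No deficient library reached the lowest sufficient one. Deficient libraries averaged 413 ± 22.8 FPKM (SD, n = 2), sufficient ones 506 ± 34.2 FPKM (SD, n = 3), a log2 fold change of -0.29 (SE 0.12, limma unadjusted p = 0.0472, adjusted p = 0.274).

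Zap70 (ENSMUSG00000026117.10, chromosome 1, 36761798 to 36782818, plus strand), the kinase that binds phosphorylated ITAMs, stood at 157, 129, 143 and 128 FPKM in deficient columns 1 to 4, against 169, 164, 148 and 186 FPKM in sufficient columns 1 to 4. The averaged libraries did not overlap, though deficient replicate 1 lay above sufficient replicate 3 as single columns. The fitted log2 difference was -0.28 (limma SE 0.12, adjusted p = 0.298). The ratio of Zap70 to Lck was 0.378 and 0.299 in the deficient libraries and 0.329, 0.333 and 0.341 in the sufficient ones (exact two-sided permutation p = 0.9). The deficient libraries thus lay on opposite sides of the sufficient range. Without deficient replicates 1 and 3 the log2 fold changes of Lck and Zap70 were -0.24 and -0.39, and without replicates 2 and 4 of that group they were -0.35 and -0.17.

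Lat (ENSMUSG00000030742.7, chromosome 7, 126363824 to 126369570, minus strand), the membrane adaptor on which the signalling complex assembles, stood at 382, 320, 355 and 309 FPKM in deficient columns 1 to 4, against 509.6, 428, 501 and 507 FPKM in sufficient columns 1 to 4. Every deficient column lay below every sufficient column, and sufficient replicate 2 was the lowest of its group. Deficient libraries averaged 342 ± 38.3 FPKM (SD, n = 2), sufficient ones 479.9 ± 44.8 FPKM (SD, n = 3). The log2 fold change of -0.49 (SE 0.14) had an unadjusted p = 0.00920 and did not pass after adjustment over all genes (limma adjusted p = 0.135). Its 95% interval corresponds to 56.8% to 89.3% of the sufficient level, and 11.1% of all genes tested differed by more.

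Lcp2 (ENSMUSG00000002699.13, chromosome 11, 34046920 to 34092295, plus strand), the cytosolic adaptor that Lat recruits, stood at 125, 130.1, 124 and 132 FPKM in deficient columns 1 to 4, against 137, 128, 142 and 138 FPKM in sufficient columns 1 to 4. The groups overlapped at sufficient replicate 2. The fitted log2 difference was -0.08 (limma SE 0.10, adjusted p = 0.721), with a 95% interval that corresponds to 80.2% to 112% of the sufficient level. The ratio of Lcp2 to Lat was 0.377 ± 0.0565 in deficient and 0.283 ± 0.0150 in sufficient libraries, a log2 difference of 0.41 (exact two-sided permutation p = 0.1; 0.2 adjusted over 6 ratios).

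Themis (ENSMUSG00000049109.15, chromosome 10, 28668360 to 28883818, plus strand) was the least abundant of the 9 genes per length and the one with the largest difference. It stood at 21.1, 23.2, 22.5 and 25.4 FPKM in deficient columns 1 to 4, against 14.9, 14.1, 18.0 and 11.8 FPKM in sufficient columns 1 to 4. Every deficient column lay above every sufficient column. Deficient libraries averaged 23.0 ± 1.73 FPKM (SD, n = 2), sufficient ones 14.1 ± 2.34 FPKM (SD, n = 3), a log2 fold change of 0.68 (SE 0.15, unadjusted p = 0.00265, limma adjusted p = 0.0711). The 95% interval corresponds to 125% to 205% of the sufficient level, and 6.27% of genes tested differed by more. Themis passed in 4 of 24 other settings. They were both fits with the 8 columns as separate libraries, totals made equal without the gene Snora61, and leaving out sufficient replicate 3. That replicate is 1 column of an averaged pair (log2 fold change without it 0.72, limma adjusted p = 0.0477). The setting without Snora61 was chosen after seeing the data. Relative to Lat in the same library, Themis was at 0.0592 and 0.0772 in deficient and 0.0326, 0.0329 and 0.0232 in sufficient libraries, a log2 difference of 1.21 (exact two-sided permutation p = 0.1; 0.2 adjusted over 6 ratios).

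Depth did not limit these values equally. On the longest annotated coding transcript, Themis rested on approximately 210 to 1300 fragments per column and each of the other 8 on at least 950.

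Of the 9 genes, 2 had deficient libraries all above and 4 all below the sufficient ones (Cd4 and Themis, and Cd3e, Lck, Zap70 and Lat), 6 in all. Of all genes tested, 36.7% were so separated, 18.9% higher and 17.9% lower. In order of level, deficient libraries ran Cd3g, Lck, Lat, Cd3d, Cd4, Cd3e, Zap70, Lcp2 and Themis. Lat and Cd3d, and Zap70 and Lcp2, overlapped there and cannot be ordered beyond their spread. In sufficient libraries the order was Cd3g, Lck, Lat, Cd3d, Cd3e, Cd4, Zap70, Lcp2 and Themis, and the neighbours that overlapped were Cd3g with Lck, Lck with Lat, and Cd3e with Cd4.

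The direction of the small differences depended on how libraries were scaled to each other. As deposited, 6 of the 9 log2 fold changes were negative. With library totals made equal, where the median over all genes became 0.18, 3 were negative and Cd3e (0.08), Cd3d (0.03) and Lcp2 (0.13) turned positive. Quantile normalization turned Cd3e (0.05) and Lcp2 (0.02). Measured against the median of all genes, 3 of 9 lay above it both as deposited and with equal totals, and 5 after quantile normalization. Lat, Lck and Zap70 stayed negative and Themis and Cd4 positive in each of these scalings, at -0.28, -0.08, -0.07, 0.88 and 0.38 with equal totals. As a sum, the 9 genes held 0.496% to 0.518% of all FPKM in deficient and 0.475% to 0.499% in sufficient columns. The summed FPKM itself ran the other way, at 2370 to 2520 and 2545 to 3017.

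**Figure D2:**
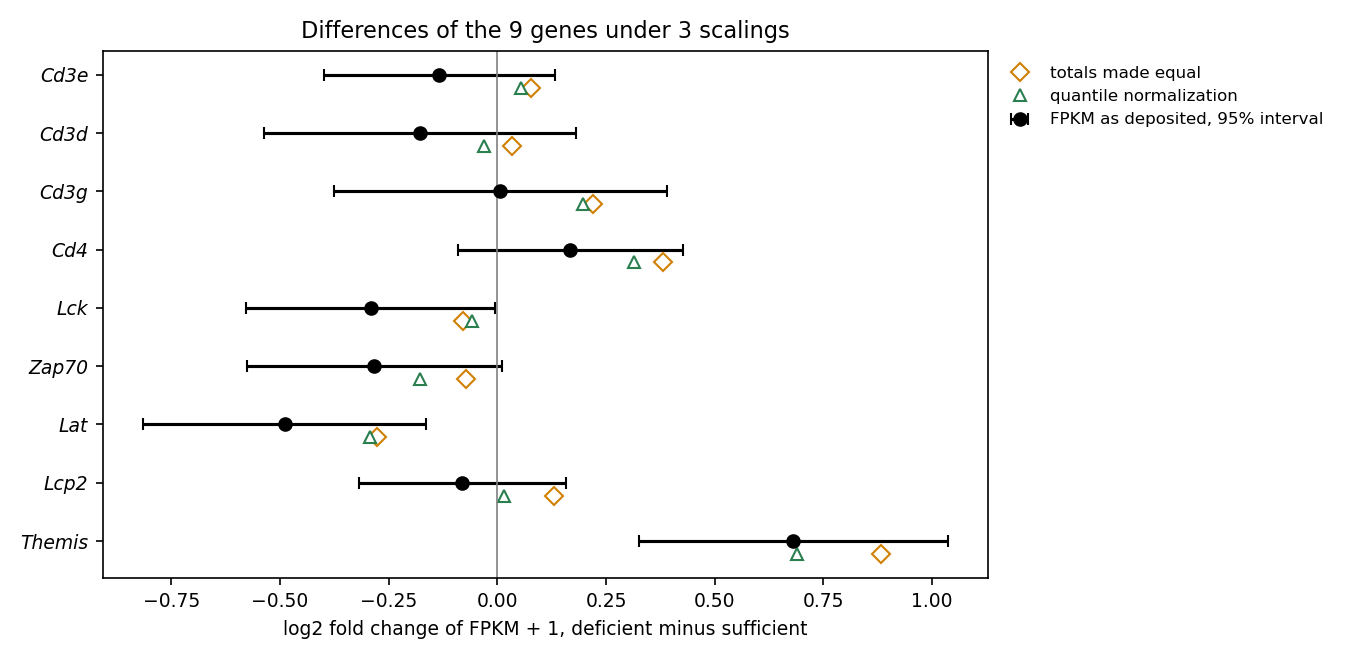
Log2 fold change of FPKM + 1, deficient minus sufficient libraries, for each gene. Black points and bars are limma estimates with 95% intervals on the values as deposited. Open symbols are the estimates after making totals equal or after quantile normalization. The Lat, Lck and Themis intervals exclude 0 (Lck narrowly). Cd3e and Lcp2 change side with either other scaling, and Cd3d only when totals are made equal.

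Markers of other cells that the sort could hold were also measured, and 1.93% of all genes tested were called higher. The 16 macrophage markers summed to 312 to 675 FPKM in deficient and 17.4 to 73.5 FPKM in sufficient libraries, and 8 of 14 tested rose. Lyz2, the most abundant of them, rose from 8.64 ± 5.93 to 110.1 ± 67.5 FPKM, and Fcgr3, Mpeg1 (log2 fold change 3.18) and Emr1 (2.64) had the lowest adjusted p-values. The 12 NK markers summed to 359 to 406 and 13.2 to 38.2 FPKM, and 5 of 9 tested rose, led by Klrd1, Fcer1g and Klrk1. Fcer1g, which myeloid cells also express, made up most of that sum, at 265 ± 25.4 FPKM in deficient libraries. Klrb1c, Nkg7, Eomes and Prf1 did not pass. Klrb1c measured 2.33 ± 1.02 against 1.27 ± 0.156 FPKM and Nkg7 18.2 ± 4.51 against 9.31 ± 3.04 FPKM. Eomes was at 1.26 ± 0.0390 against 1.20 ± 0.113 FPKM and Prf1 at 2.02 ± 0.137 against 2.38 ± 0.860 FPKM. Ncr1, which defines NK cells, was at most 0.644 FPKM in any column. Smaller lists also held calls, with Ly6d the only one of 4 tested B cell markers and Siglech and Batf3 2 of 5 tested dendritic cell markers that rose. Cd79b and Ccr9, the most abundant of those lists, did not pass (7.65 ± 1.56 against 12.4 ± 3.97 and 30.8 ± 5.71 against 18.6 ± 6.58 FPKM). Of all lists together 16 markers passed, against 8 without sufficient replicate 2, 7 without sufficient replicate 4, and 1 or 0 with one or the other deficient library left out. CD8, gamma-delta and neutrophil markers held 0 calls among 1, 1 and 3 tested. The 9 T cell receptor genes were summed at 2399 to 2515 FPKM in deficient libraries beside these markers, against 2545 to 3017. In sorted bulk samples fewer cells of a type and less RNA per cell cannot be told apart, and the part of other cells in the differences above was not tested.

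**Figure D3:**
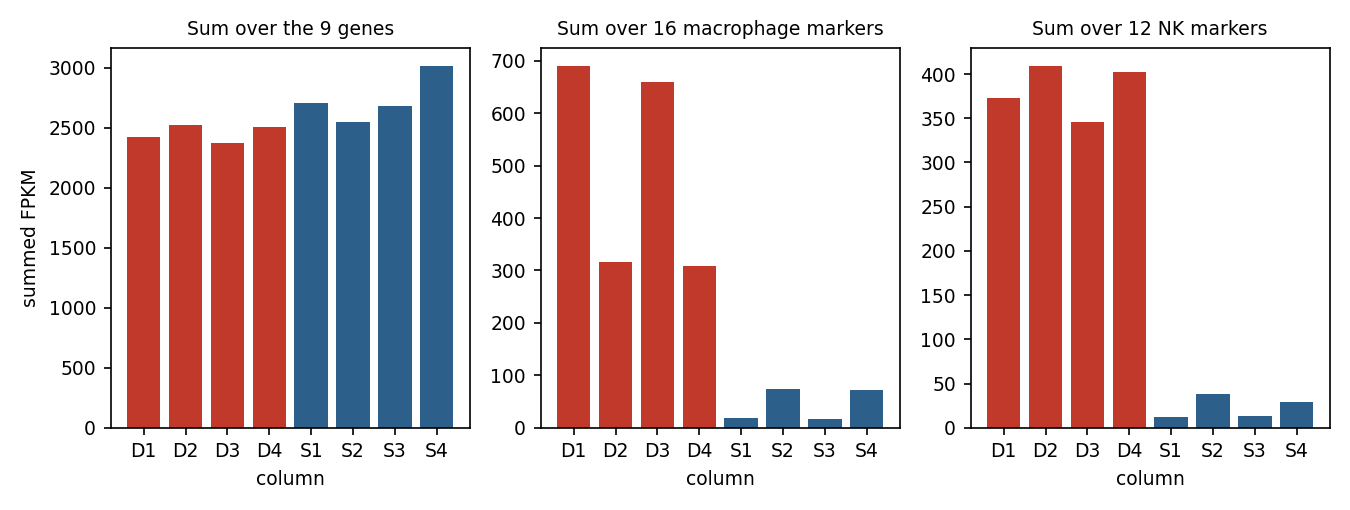
Summed FPKM in each deposited column (D1 to D4 deficient, red; S1 to S4 sufficient, blue) for the 9 T cell receptor genes, 16 macrophage markers and 12 NK markers, each on its own axis from 0. The T cell receptor sum is 2370 to 2520 in deficient and 2545 to 3017 in sufficient columns, while both marker sums are higher in every deficient column.

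Other genes of the pathway were compared in the same way. Of 60 tested genes among 61 listed components, 0 rose and 2 fell, where 1.93% and 0.697% of all genes tested did, and the median log2 fold change was 0.01. Without sufficient replicate 2, or with one or the other deficient library left out, 0 of these and of the induced genes below passed, against 3 lower in the full comparison. The direction of the calls depended on scaling. With totals made equal, 4 of these and the induced genes were called higher and 1 lower, where 338 of all 368 calls were higher. Among the 4 were Syk and Txk, which were also higher as deposited. At an unadjusted p under 0.05, 7 of the 60 were higher and 11 lower, against 9.36% and 8.45% of all genes tested.

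Coreceptors and costimulatory receptors held 0 calls among 7 tested, where 2.63% of all genes tested were called. Their median log2 fold change was -0.33. At an unadjusted p under 0.05, 4 of the 7 were lower, against 8.45% of all genes tested. Cd5, a scavenger receptor family member that dampens receptor signalling and whose level follows its strength, measured 279 ± 11.6 against 362 ± 22.9 FPKM (log2 fold change -0.37, limma adjusted p = 0.160). Cd28, the main costimulatory receptor, measured 64.6 ± 1.25 against 91.7 ± 21.1 FPKM (-0.47, adjusted p = 0.249).

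Of the other kinases, 0 of 6 passed, where 2.63% of all genes tested did. At an unadjusted p under 0.05, 4 of 6 were higher, against 9.36% of all genes tested. Syk, the relative of Zap70 that is abundant in B cells and myeloid cells, measured 3.45 ± 0.559 against 1.20 ± 0.338 FPKM, a log2 fold change of 1.02 (SE 0.21, limma adjusted p = 0.0550). The macrophage markers given above were higher in the same libraries, and their part in the Syk value was not tested. Txk, a Tec family kinase of T cells, measured 57.6 ± 2.75 against 37.7 ± 4.78 FPKM (0.60, SE 0.13, adjusted p = 0.0604). Syk passed in 8 of 23 and Txk in 7 of 24 other settings, each count including the fits with the 8 columns as separate libraries.

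Both calls of the pathway were adaptors, both lower, out of 16 tested, where 0.697% of all genes tested were called lower. Sit1, a transmembrane adaptor that restrains receptor signalling, stood at 22.6, 25.8, 24.7 and 21.9 FPKM in deficient columns 1 to 4, against 44.3, 44.8, 40.6 and 66.2 FPKM in sufficient columns 1 to 4. Every deficient column was below every sufficient one, and sufficient replicate 4 was the highest. It fell to 23.7 ± 0.143 FPKM from 51.1 ± 13.1 FPKM, with a limma log2 difference of -1.05 (SE 0.19, adjusted p = 0.0412). The call ended in 6 of 24 other settings, among them without sufficient replicate 2 (adjusted p = 0.0749) and with one or the other deficient library left out (0.236 and 0.210). Sh2d2a (TSAd), an adaptor that binds Lck, fell to 45.9 ± 2.35 FPKM from 66.5 ± 3.62 FPKM, with a limma log2 difference of -0.52 (SE 0.10, adjusted p = 0.0486). It was close to the threshold and passed in 6 of 24 other settings, including the fits with the 8 columns as separate libraries. With totals made equal its log2 fold change was -0.32, with a limma adjusted p of 0.206.

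**Figure D4:**
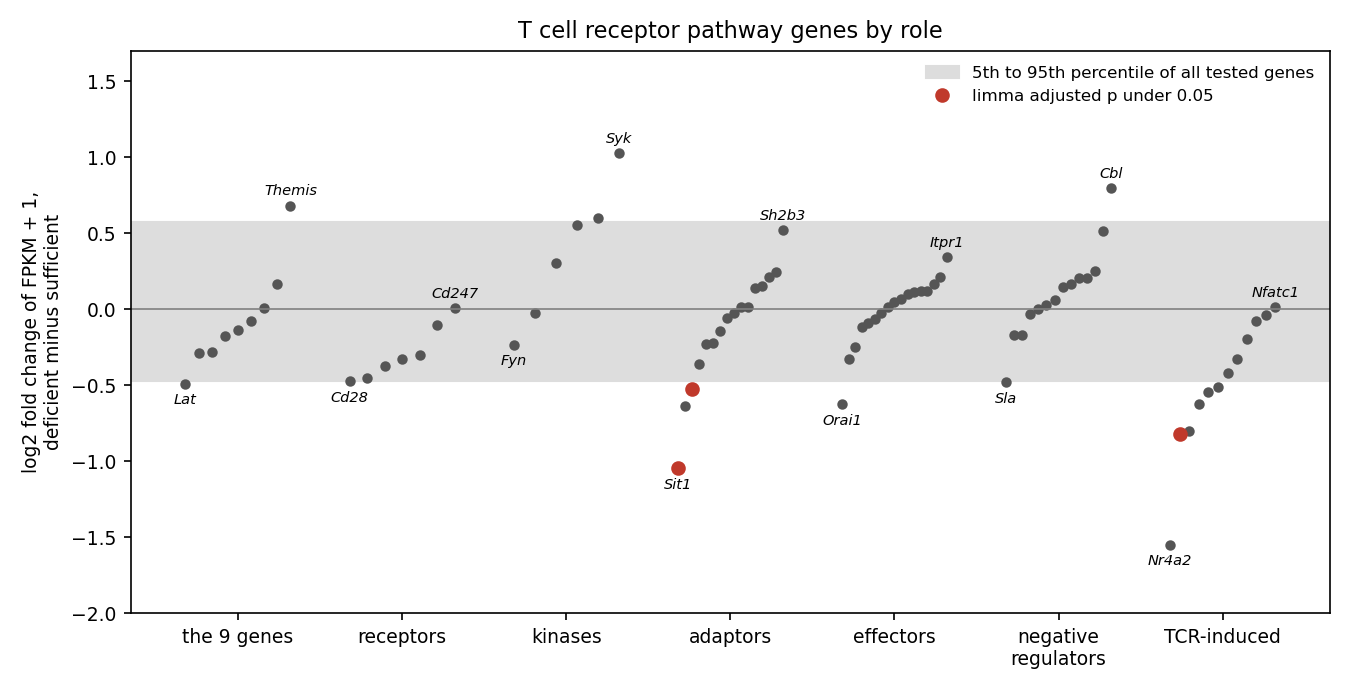
Log2 fold change, deficient minus sufficient, of the 9 genes and of other T cell receptor pathway genes by role, each point a gene, sorted within its list. The grey band spans the 5th to 95th percentile of all tested genes (-0.47 to 0.58), red points passed limma at an adjusted p under 0.05 (Sit1, Sh2d2a and Tnfrsf9), and names mark the ends of each list.

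Effectors downstream of Lat held 0 calls among 17 tested, where 2.63% of all genes tested were called. Their median log2 fold change was 0.05. At an unadjusted limma p under 0.05, 0 were higher and 2 lower, against 9.36% and 8.45% of all genes tested. Orai1, the pore of the calcium channel that opens after receptor signalling, measured 17.2 ± 1.88 against 27.2 ± 4.04 FPKM (log2 fold change -0.63, limma adjusted p = 0.0808), and Bcl10, which links the receptor to NF-kB, 33.3 ± 1.26 against 42.1 ± 0.153 FPKM (-0.33, adjusted p = 0.139). Phosphatases and negative regulators held 0 calls among 14 tested, with a median of 0.10. Of these, 2 were higher and 1 lower at an unadjusted limma p under 0.05, against 9.36% and 8.45% of all genes tested. Sla, an adaptor that promotes loss of receptor complexes, measured 73.6 ± 4.37 against 103 ± 3.88 FPKM (-0.48, adjusted p = 0.0589), and Ubash3b, a phosphatase that opposes Zap70 and Syk, 31.0 ± 4.15 against 21.4 ± 2.68 FPKM (0.51, adjusted p = 0.128).

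Genes induced by T cell receptor signalling had 1 call among 12 tested, a lower one, where 0.697% of all genes tested were called lower. Of the 12 log2 fold changes as deposited, 11 were negative, with a median of -0.47, against 5529 of 10614 and -0.01 over all genes tested. With totals made equal the median over all genes was 0.18, and these signs were not counted again there. Tnfrsf9 (4-1BB), a costimulatory receptor, fell to 36.8 ± 2.01 FPKM from 66.0 ± 4.77 FPKM, with a limma log2 difference of -0.82 (SE 0.11, adjusted p = 0.0178). Without sufficient replicate 2 its adjusted p was 0.0524, with one or the other deficient library left out 0.144 and 0.0957, and with totals made equal 0.0671. Irf4, a transcription factor of effector Treg cells, measured 15.1 ± 2.21 against 22.1 ± 3.21 FPKM (-0.51, adjusted p = 0.154).

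Nr4a1 and Cd69 differed more between libraries of one group than between the groups. Nr4a1 (Nur77), an immediate response gene (picked for mention once its values were known), stood at 267.5, 78.8, 253 and 80.2 FPKM in deficient columns 1 to 4, against 276, 197, 266 and 175 FPKM in sufficient columns 1 to 4. Its library of deficient replicates 2 and 4 stood below all others, while that of deficient replicates 1 and 3 lay within the sufficient range. Cd69, an early activation marker picked likewise, stood at 148, 64.1, 153 and 70.4 FPKM in deficient columns 1 to 4, against 268, 91.1, 294 and 95.6 FPKM in sufficient columns 1 to 4. In both groups the libraries numbered 1 and 3 were the highest. The log2 fold changes of Nr4a1 (-0.54, SE 0.45) and Cd69 (-0.42, SE 0.53) did not pass (limma adjusted p = 0.580 and 0.723).

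**Figure D5:**
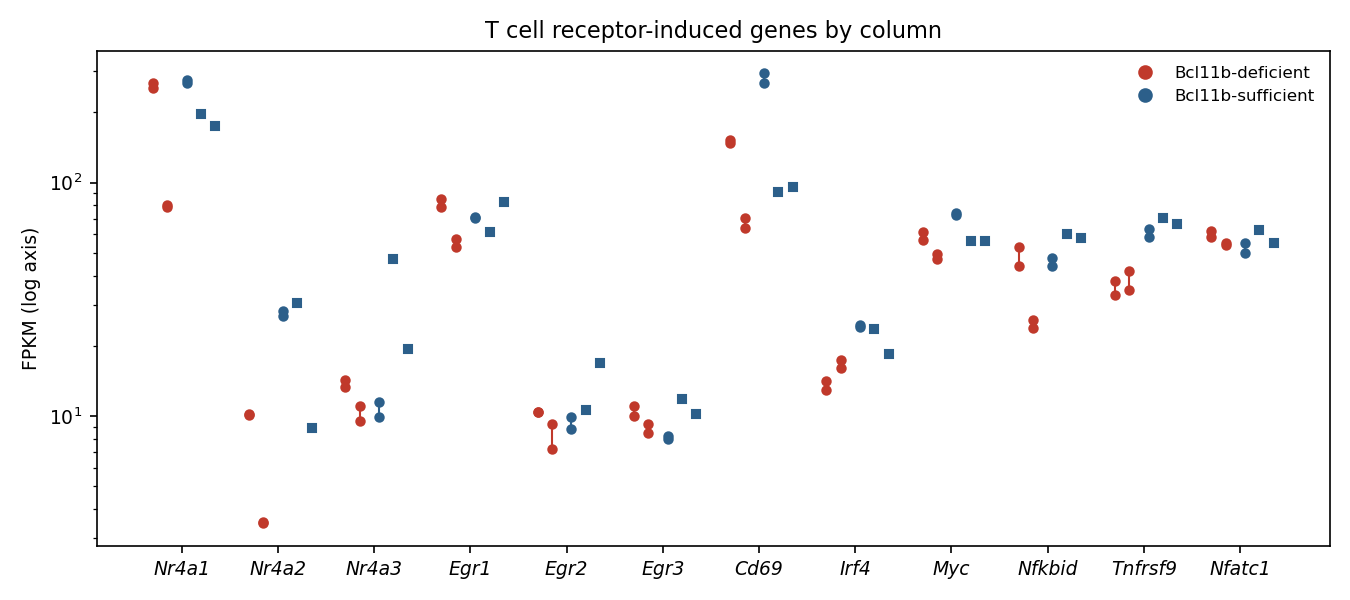
FPKM (log axis) of 12 genes induced by T cell receptor signalling in the 8 deposited columns, placed by library as in the plot of the 9 genes (circles joined by a line are 1 averaged library). Tnfrsf9 and Irf4 separate the groups, whereas Nr4a1 and Cd69 are highest in the libraries numbered 1 and 3 of each group.

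Across the 5 libraries, the 9 genes differed in how closely they followed their common profile, the mean of their log2(FPKM + 1) values each centred on its own mean. Lcp2 and Cd3e lay nearest to it, with root mean square differences of 0.03 and 0.04 on the log2 scale. Lat and Themis lay farthest, at 0.23 and 0.41. The genes outside the set nearest to that profile were Gpr108, Ppp6r1, Thoc5, Sars and Eif2b5, at 0.01 to 0.02. With 5 libraries that share their scaling, this likeness is a description only.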

How the data were processed

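The authors deposited FPKM values per gene; per the submitters' processing notes the build was mm10 and the tools included STAR 2.5.1, Cuffdiff 2.2.1, Cuffnorm 2.2.1, cutadapt 1.12 and Trim Galore 0.4.2. The kit was stranded total RNA, per the labels' protocols. FPKM is a relative measure. As deposited, the 5 library totals ran from 0.897 to 1.16 times their mean. Scaling factors from the median ratio over genes ran from 0.991 to 1.02. The deposited values were thus close to median-ratio scaling, and making totals equal moved the median log2 fold change over all genes to 0.18. The table's 8 further value columns matched no sample and were not used. Columns of a group that differed by under 1.5 times sampling noise were averaged. limma 3.58.1 (R 4.3.3, with trend) was fitted to log2(FPKM + 1) of the 10614 genes averaging 1 FPKM or more, with two-sided p-values adjusted by Benjamini-Hochberg; fold changes understate those of low genes. The fit was tested on simulated data. Genes named were the 9, Bcl11b, the called or lowest adjusted p genes of each list, the most abundant marker, and the 5 nearest profiles. Foxp3, Cd8a, Cd8b1, Cd247, Ncr1, Klrb1c, Nkg7, Eomes, Prf1, Nr4a1, Nr4a2 and Cd69 were added after their values were seen. Members and lists were chosen with earlier results of these data known. Coordinates come from GENCODE M21 (GRCm38).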

Additional observations from a re-analysis of the deposited data

How the results depend on the processing

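Over 24 other settings, the count of all genes called (279) became 182 and 173 with pseudocounts of 0.1 and 0.01, 99 with no filter, 113 with a filter of 5 FPKM, 1851 with the 8 columns as separate libraries, and 8 to 297 when a column or library was left out. The 9 genes had 0 calls, 3 with 8 columns, 1 with totals made equal without Snora61 (a setting chosen after seeing the data, since Snora61 took 5.08% of 1 library), and 0 to 1 with a column or library left out. Pathway and induced genes (3 called) had 1 with no filter, 1 with the 5 FPKM filter, 5 with equal totals (4 higher), 6 without Snora61 (4 higher), 5 with robust empirical Bayes, 22 with 8 columns and 0 to 4 in the leave-outs. Other cell type markers (16) had 8 at either pseudocount, 4 with no filter, 8 with the 5 FPKM filter, 10 with robust empirical Bayes and 0 to 17 in the leave-outs. The share of calls that were higher was 73.5%, 91.8% with equal totals and 91.9% with no filter.

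Log2 fold changes turned positive for Cd3e (0.0782 with equal totals, 0.0532 without Snora61, 0.0549 with quantile normalization), Cd3d (0.0347 and 0.0096 with equal totals and without Snora61) and Lcp2 (0.131, 0.106 and 0.0164). Cd3g ranged from -0.139 to 0.153 in the leave-outs. The log2 differences of ratios ranged from -0.160 to 0.175 for Zap70 to Lck, -0.155 to 0.0677 for Cd3d to Cd3e and -0.0246 to 0.308 for Cd3g to Cd3e. The cause was not tested.

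Deviations from the group mean correlated at 0.03, 0.06, 0.13 and 0.09 between same-numbered columns, not all above 0.1. Between differently numbered columns they correlated at -0.11 to 0.13. The numbers were not taken as pairs. Since some columns are near-identical, this does not test whether the averaged libraries pair across groups. With the replicate block on the 5 libraries, 283 genes, 0 of the 9 genes, 2 pathway genes and 21 markers were called; with the replicate block and 8 columns, 1418 genes, 2 of the 9 and 22 pathway genes.

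With 2 deficient libraries, leaving either out left 16 or 8 genes called, so the number of libraries limits these results; Themis, at 210 to 1300 fragments per column, is the least deeply read of the 9.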
